A study of Mus musculus with 4 samples.

Results

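The genes carried by the mouse mitochondrial genome were examined in RNA-seq of primary astrocyte cultures. Members were all genes of the deposited expression table whose symbol starts with mt-, divided by their annotated biotype. There were 34 of them among 25393 listed genes: 13 mRNAs, 2 rRNAs and 19 tRNAs. The annotation holds 37, and the 3 tRNA genes mt-Td, mt-Tf and mt-Ts1 were not listed. The rule uses the symbol and no measured value.

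The cultures came from cortex and hippocampus of untreated C57BL/6 mice at postnatal day 1. The labelled genotypes are wild type (WT) and tet1-/-, a constitutive knockout (KO) of Tet1, a dioxygenase that oxidises 5-methylcytosine in DNA, with 2 libraries each. Cells from 2 mice were pooled for an isolation and grown for about 7 days. They were purified by shaking at 260 rpm and kept for a further 24 hours. A library thus stands for cultured cells of pooled mice and not for a single animal. The labels do not tie libraries to separate cultures. Values are normalized counts, that is, reads on a gene divided by the size factor of the library. FPKM values (reads per kilobase of gene, scaled to reads on genes) computed from them are used wherever levels are compared between genes.

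Depth was even, with 18749610 to 22673555 reads on genes per library. These facts of the whole data set touch every comparison below. First, Tet1 itself did not fall with the KO label, since its normalized counts were 266 and 121 in WT against 173 and 463 in labelled KO (limma, log2 fold change 0.66, adjusted p = 0.691). The groups overlapped, so these libraries are called "labelled KO" throughout; which exons the deletion removes is not given in the sources used here. Second, the labels differed in signs of sex, since Xist stood at 8.54 and 0.920 in WT against 2896 and 13367 in labelled KO, and 4 Y-linked genes summed to 3765 and 1909 in WT, and to 0 and 830 in the others. Last, all 11 astrocyte markers were detected in each library, but their summed counts were 185234 and 180613 in WT, and 292908 and 53313 in labelled KO replicates 1 and 2, and 14 microglia markers summed to 2538 and 4312 against 1060 and 622. The highest astrocyte sum was mostly Gfap, at 174853 in labelled KO replicate 1. Of the 11 astrocyte markers 9 were on average lower in labelled KO, with a median log2 fold change of -0.68 (0.41 without labelled KO replicate 2), and all 14 microglia markers were lower, with a median of -3.38. Neuron markers summed to 3834 to 4802, but 7 of the 8 tested were higher in labelled KO, with a median of 1.72 (0.72 without labelled KO replicate 2). Summed oligodendrocyte, meningeal and vascular, and ependymal markers fell between 1607 and 18308. The part of these differences in the results on mitochondrial genes was not tested, and fewer cells of a type and less RNA per cell cannot be told apart.

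Mitochondrial DNA is a small circle read from both strands into long precursor RNAs by the polymerase Polrmt with its partner Tfam. The tRNAs lie between most of the other genes and are cut out, which frees the mRNAs and rRNAs for maturation. The mRNAs encode core subunits of respiratory complexes I, III and IV and of the ATP synthase (complex V), and the rRNAs form the mitochondrial ribosome that translates them. In the annotation 12 mRNAs lie on the plus strand, and mt-Nd6 is the only mRNA on the minus strand.

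Because short reads are assigned to genes by sequence, members were first compared with all other annotated transcripts. A set of 7 nuclear pseudogenes forms a block on the minus strand of chr1:24611535-24616197 (GRCm38, mm10) that matches mitochondrial genes in their order. The matched stretch, here called the copied stretch, runs from the last 483 of the 1545 bases of mt-Co1 to the first 876 of the 1378 bases of mt-Nd4. Between these, mt-Co2, mt-Atp6, mt-Co3, mt-Nd3 and mt-Nd4l have nearly whole copies. The copies were 99.7% to 100% identical to the mitochondrial genes. The stretch also spans mt-Atp8, but bases between the pseudogenes were not compared, so a copy of mt-Atp8 was not tested. A window of mt-Co3, which encodes a complex IV subunit, is shown with its copy Gm28437 because no base of the window differs, so reads from the pair cannot be told apart there. The windows lie at chrM:8907-9006 on the plus strand and chr1:24613572-24613671 on the minus strand.
mt-Co3: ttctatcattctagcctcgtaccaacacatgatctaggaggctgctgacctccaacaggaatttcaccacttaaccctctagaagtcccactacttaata
Gm28437: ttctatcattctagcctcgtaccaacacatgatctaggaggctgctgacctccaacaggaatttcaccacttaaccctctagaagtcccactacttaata
The mRNA of mt-Cytb, the complex III subunit cytochrome b, lies outside this block. Its closest annotated copy, Gm11410, was 92.9% identical and was not listed in the table. The same stretch of both genes, at chrM:14445-14544 and chr4:80004289-80004388 on the plus strands, is shown because reads of mt-Cytb do differ from the copy, with the 10 differing bases of 100 in capitals.
mt-Cytb: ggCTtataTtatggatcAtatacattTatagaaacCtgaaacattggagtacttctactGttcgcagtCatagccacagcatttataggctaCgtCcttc
Gm11410: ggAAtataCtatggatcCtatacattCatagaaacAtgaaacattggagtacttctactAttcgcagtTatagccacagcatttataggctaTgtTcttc
The edge of the copied stretch within mt-Co1, the catalytic subunit of complex IV, is shown at chrM:6330-6449, where capitals mark the first 60 bases that Gm29216 repeats.
mt-Co1: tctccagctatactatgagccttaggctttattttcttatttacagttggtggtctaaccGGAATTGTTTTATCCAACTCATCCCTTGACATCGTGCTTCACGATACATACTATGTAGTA
The smallest mRNA, mt-Atp8, had no annotated copy of its own but lies between genes that do. It is printed whole (chrM:7766-7969, plus strand) because its last 43 bases, in capitals, are also the start of mt-Atp6, so that reads from that end belong to either gene.
mt-Atp8: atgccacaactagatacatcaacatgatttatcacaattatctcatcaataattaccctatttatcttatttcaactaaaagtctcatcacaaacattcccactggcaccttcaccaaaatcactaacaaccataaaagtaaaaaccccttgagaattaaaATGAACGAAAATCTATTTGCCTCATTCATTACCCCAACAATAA

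Levels per length set the mRNAs of the copied stretch apart from the others. As means over the 4 libraries, mt-Co1 stood at 5037 FPKM, the highest of all listed genes, followed by mt-Cytb at 2469, mt-Nd1 at 2249, mt-Nd2 at 1347, mt-Nd5 at 949, mt-Nd4 at 794 and mt-Nd6 at 646. The NADH dehydrogenase genes mt-Nd1, mt-Nd2, mt-Nd4, mt-Nd5 and mt-Nd6 encode subunits of complex I. The 6 mRNAs inside the stretch were all lower, from mt-Co2 at 124 FPKM through mt-Co3 at 60.6, mt-Atp6 at 55.4, mt-Nd3 at 48.0 and mt-Nd4l at 38.0 to mt-Atp8 at 5.21. Together they held 0.898% and 1.22% of mitochondrial mRNA reads in WT, against 1.08% and 1.36% in labelled KO. Some copies of these genes were listed at levels near theirs, with Gm10925 at 56.1 FPKM beside mt-Atp6 and Gm28437 at 41.4 beside mt-Co3. Gm10222 was at 26.7 beside mt-Nd4l. Further below their genes were Gm28661, at 51.3 beside mt-Co2, and Gm28438, at 11.2 beside mt-Nd3. How the authors treated reads that match several places is not given in the sources used here, and its part in the low levels was not tested. The ranges of most neighbours in this order overlapped over the 4 libraries. Ranges that did not overlap were those of mt-Co1 above mt-Cytb, mt-Nd6 above mt-Co2, mt-Co2 above mt-Co3 and mt-Nd4l above mt-Atp8. Within each library, however, mt-Nd1, mt-Nd2, mt-Nd5, mt-Nd4 and mt-Nd6 kept this order. The order of mt-Cytb and mt-Nd1, and that among mt-Co3, mt-Atp6 and mt-Nd3, changed between libraries.

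**Figure D1:**
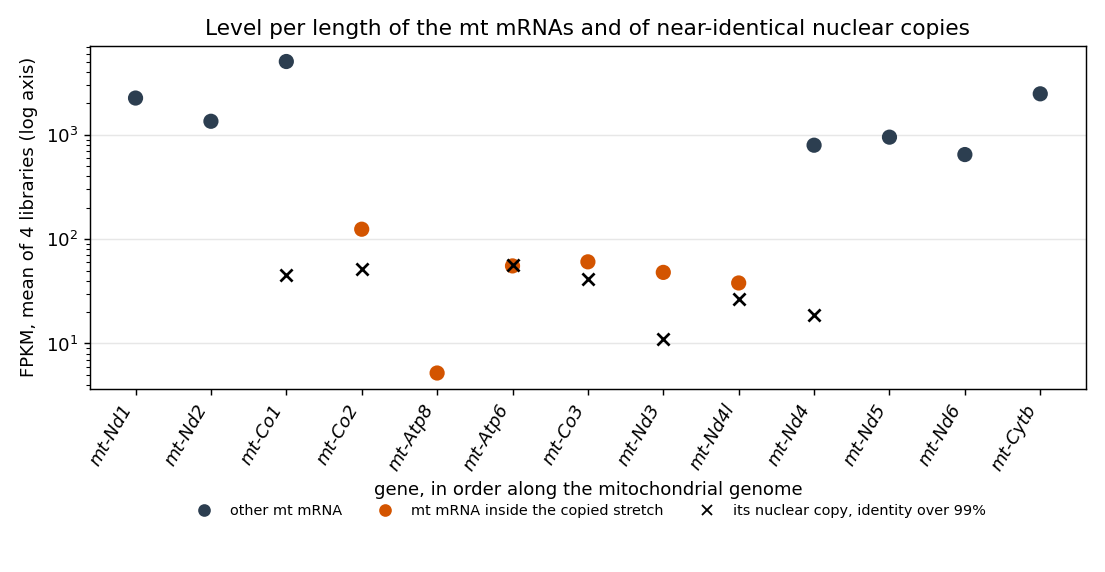
Mean FPKM over the 4 libraries (log axis) of the 13 mitochondrial mRNAs in their order along the genome; crosses give the nuclear copy that is over 99% identical, where it is listed. The 6 mRNAs of the copied stretch sit between 5.21 and 124 FPKM, and the other 7 between 646 and 5037.

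The first comparison asked whether the mitochondrial mRNAs differed between the labels. All 13 were on average higher in the libraries labelled KO, by log2 fold changes of 0.21 to 1.07 with a median of 0.67, but none passed the test across all genes. Summed over the 13, normalized counts were 379564 and 235958 in WT against 428378 and 412903 in labelled KO. These sums were 1.90% and 1.13% of all reads on genes in WT, and 1.93% and 2.04% in the others. WT replicate 2 was the low library, and WT replicate 1 lay close to both libraries labelled KO. The log2 difference of the sums was 0.49 (pooled SD 0.34, n = 2 per group; exact permutation test, two-sided, p = 0.33, the smallest that 2 against 2 allows). It was 0.15 without WT replicate 2 and 0.83 without WT replicate 1. The median over the 13 was 0.31 without WT replicate 2, and 12 of the 13 were then still higher, as they were without labelled KO replicate 1. The exception was mt-Co1 both times.

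No gene of any kind passed an adjusted p under 0.05 in limma (0.00% of 22094 genes tested). At an unadjusted p under 0.05 there were 2 of the 13 mRNAs, both higher, where 13.7% of all genes tested had such a p and 4.54% had it in the direction of higher values. In 8 of the 13, both libraries labelled KO lay above both WT libraries, and of all genes tested 22.5% did so. Of all genes tested, 46.3% had a log2 fold change above 0, and their median was -0.07. The 13 mRNAs come from shared precursors, so they are not independent of each other. DESeq2 on the recovered reads called 6.50% of 17024 genes at an adjusted p under 0.05, 1.69% as higher and 4.8% as lower, and no mitochondrial gene was among them.

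**Figure D2:**
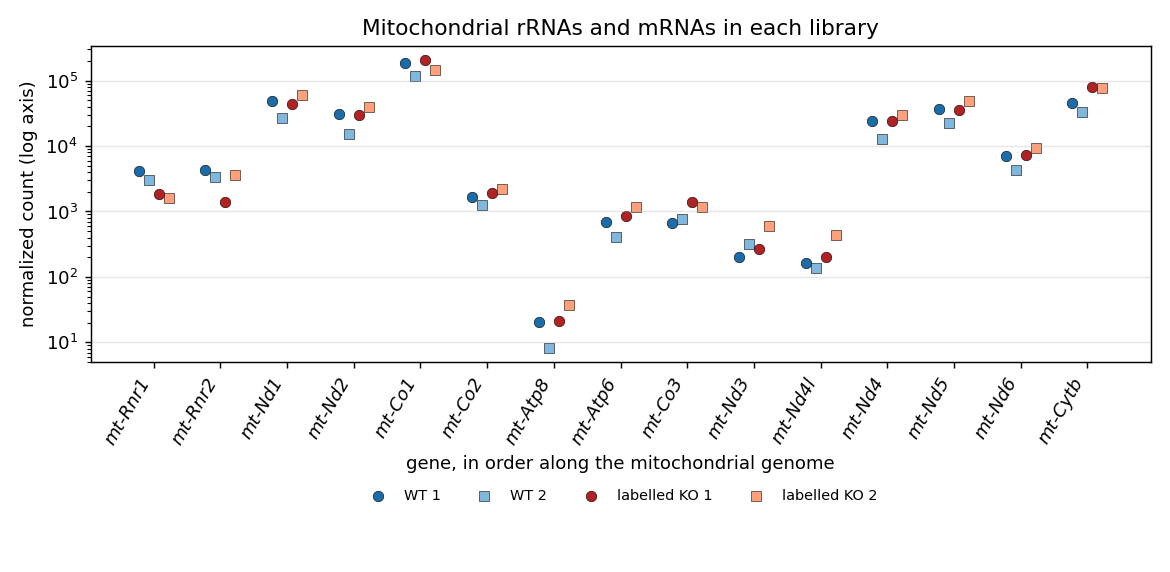
Normalized count (log axis) of the 2 rRNAs and 13 mRNAs in each of the 4 libraries, in order along the mitochondrial genome. WT replicate 2 was the lowest library for 11 of the 13 mRNAs, whereas for mt-Rnr1 both libraries labelled KO lay below both WT libraries.

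The complex III mRNA mt-Cytb (chrM:14145-15288) had normalized counts of 45615 and 32511 in WT against 80307 and 77432 in labelled KO. The groups were well apart, and the libraries labelled KO lay close together. Its log2 fold change was 1.03 (SE 0.39; limma, unadjusted p = 0.0430, adjusted p = 0.356), or 2.05-fold on the log2(value + 1) scale. The value stayed between 0.79 and 1.28 when each library was left out in turn. Among the mRNAs outside the copied stretch this was the highest log2 fold change.

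Complex IV is encoded by mt-Co1, mt-Co2 and mt-Co3. The catalytic subunit mRNA mt-Co1 had 183566 and 118571 in WT against 203605 and 142918 in labelled KO, which overlap (log2 fold change 0.21, SE 0.50; limma adjusted p = 0.883), and the sign changed without WT replicate 2 (-0.11) or labelled KO replicate 1 (-0.05). It alone took 48.4% and 50.3% of the mitochondrial mRNA reads in WT, and 47.5% and 34.6% in labelled KO replicates 1 and 2, so its share was lowest in labelled KO replicate 2. The mt-Co3 values were 660 and 765 in WT against 1393 and 1159 in labelled KO, which do not overlap. The log2 fold change was 0.84 (SE 0.30; limma unadjusted p = 0.0335, adjusted p = 0.335). Its copy Gm28437 had 418 and 529 in WT against 1001 and 773 in labelled KO (log2 fold change 0.90, SE 0.33), a pattern close to that of mt-Co3. For mt-Co2, which binds cytochrome c, the values were 1668 and 1257 against 1918 and 2227, with a log2 fold change of 0.51.

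The 7 complex I mRNAs had log2 fold changes from 0.49 for mt-Nd1 to 0.96 for mt-Nd4l, with limma adjusted p of 0.453 and above. Their summed counts were 114887 ± 45887 in WT and 164120 ± 33697 in labelled KO (SD, n = 2), so the spread within groups was nearly as large as the difference. For mt-Nd1 the values were 48200 and 27039 in WT against 43509 and 59367 in labelled KO. For mt-Nd5 they were 36769 and 22574, and 35203 and 48734. In both genes WT replicate 1 lay above labelled KO replicate 1, and the order of the 4 libraries was the same. The minus-strand gene mt-Nd6 had 7110 and 4315 in WT against 7160 and 9215 in labelled KO (log2 fold change 0.55, SE 0.37), with WT replicate 1 and labelled KO replicate 1 nearly equal. It shares 14 bases with mt-Nd5 on the other strand, and whether the counting used strand is not given.

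For complex V, mt-Atp6, which forms the proton channel, had 700 and 406 in WT against 840 and 1181 in labelled KO (log2 fold change 0.90, SE 0.40; limma adjusted p = 0.406). The values of its copy Gm10925 were nearly the same in each library, at 695 and 381, and 919 and 1165. Its neighbour mt-Atp8 had 20.3 and 8.28 in WT against 21.4 and 37.9 in labelled KO, the smallest counts among the mRNAs. Summed over the 7 copies on chromosome 1, normalized counts were 2829 and 2235 in WT against 3837 and 4080 in labelled KO. The median log2 fold change was 0.87 for the 6 mRNAs of the copied stretch and 0.55 for the other 7 (0.17 without WT replicate 2). As counted, the other 7 mRNAs held 98.6% to 99.1% of the mitochondrial mRNA reads. Their sum alone differed by 0.49 on the log2 scale, like the sum over all mRNAs. However, parts of mt-Co1 and mt-Nd4, which are among the 7, are copied too. The part of reads shared with the copies in the summed mRNA level was not tested.

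**Figure D3:**
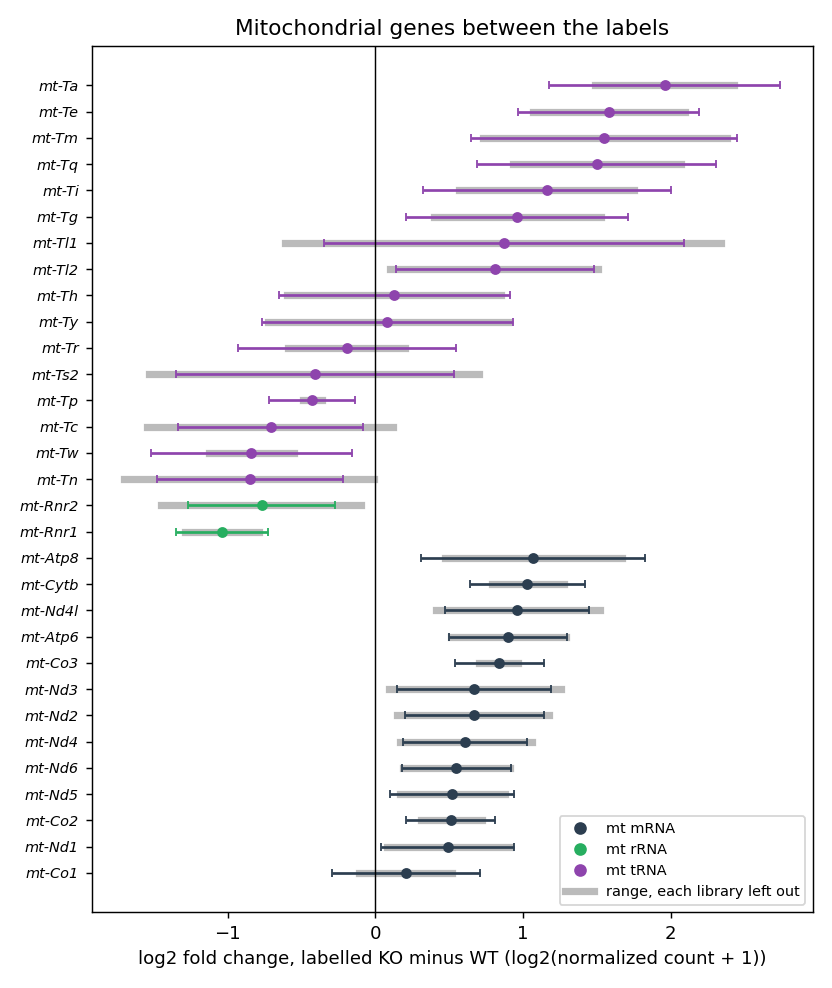
Log2 fold change (labelled KO minus WT, log2(normalized count + 1)) of the 31 mitochondrial genes that passed the minimum mean of 1; bars give the SE and grey bands the range when each library is left out. All 13 mRNAs lie above 0, both rRNAs below, and the tRNAs on both sides, and 0 genes passed an adjusted p under 0.05.

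Both rRNAs were on average lower in labelled KO, where the mRNAs were higher, and neither passed the test across all genes. The small-subunit rRNA mt-Rnr1 (chrM:70-1024) had 4212 and 2993 in WT against 1844 and 1616 in labelled KO. The groups did not overlap. Its log2 fold change was -1.04 (SE 0.31; limma unadjusted p = 0.0182, adjusted p = 0.280), or 2.06-fold lower. The large-subunit rRNA mt-Rnr2 (chrM:1094-2675) had 4335 and 3359 in WT against 1400 and 3555 in labelled KO. Only labelled KO replicate 1 was low, and the groups overlapped (log2 fold change -0.77, SE 0.50; limma adjusted p = 0.544). Without that library the log2 fold change was -0.10, and without labelled KO replicate 2 it was -1.45. The rRNA sum was 8547 and 6352 in WT, and 3244 and 5171 in the others (log2 difference -0.85, pooled SD 0.40; exact permutation p = 0.33), and the difference was -0.51 without labelled KO replicate 1. Per length, mt-Rnr1 was at 150 to 220 FPKM in WT, which is below every mRNA outside the copied stretch. The methods start library preparation from mRNA, but how it was separated from the total RNA, and so how much rRNA and tRNA was carried along, is not given in the sources used here; its part in the rRNA and tRNA levels was not tested.

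Ratios of members within a library do not depend on scaling between libraries. Those of an mRNA to an rRNA can still depend on how much rRNA each preparation carried along, which is not given. All ratios given here, other than those of mt-Nd6 and mt-Rnr2 to the plus-strand mRNAs, were chosen after their values were seen. There were 10.8 and 10.9 reads of mt-Cytb for each read of mt-Rnr1 in WT against 43.5 and 47.9 in labelled KO. Replicates were thus close together and the groups far apart, with a log2 difference of 2.07 (pooled SD 0.07). As a percentage of plus-strand mRNA reads, mt-Rnr1 was at 1.13% and 1.29% in WT against 0.438% and 0.400% in labelled KO (log2 difference -1.53, pooled SD 0.12). The same percentage for mt-Rnr2 was 1.16% and 1.45%, and 0.332% and 0.881%, so its libraries labelled KO differed more from each other (log2 difference -1.26, pooled SD 0.72; -0.56 without labelled KO replicate 1 and -1.97 without labelled KO replicate 2). Relative to the other plus-strand mRNAs, mt-Cytb was higher by 0.65 on the log2 scale (pooled SD 0.11). Relative to mt-Nd5 alone, its level per base was 1.98 and 2.30 in WT against 3.64 and 2.53 in labelled KO. That log2 difference was 0.51 (pooled SD 0.28), and labelled KO replicate 2 lay near WT replicate 2. Each of these ratios has an exact permutation p of 0.33, the smallest possible here.

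The mt-Nd6 and mt-Nd1 levels kept nearly constant proportions to mt-Nd5, but not all members did so. Per base, mt-Nd2 was 1.48 and 1.18 times mt-Nd5 in WT, and 1.48 and 1.44 times in labelled KO. The mt-Nd3 share of mitochondrial mRNA reads was 0.0523% and 0.134% in WT against 0.0622% and 0.145% in labelled KO. The mt-Nd6 level per base was 0.680 and 0.672 of that of mt-Nd5 in WT against 0.715 and 0.665 in labelled KO. These genes lie on opposite strands, but whether the counting used strand is not given. Reads of either strand may thus enter both values, and the ratio does not compare the strands. The mt-Nd1 level per base was 2.50 and 2.28 times that of mt-Nd5 in WT, and 2.36 and 2.32 times in the others. The ratio of mt-Nd6 to plus-strand mRNA reads, 1.91% and 1.86% against 1.70% and 2.28%, differed by 0.06 on the log2 scale (pooled SD 0.21; exact permutation p = 1.00). By contrast the mt-Co1 level per base was 5.89 and 6.20 times that of mt-Nd5 in WT, 6.83 times in labelled KO replicate 1 and 3.46 times in labelled KO replicate 2, so that 1 library stood apart. That library was also the lowest of the 4 in 10 of the 11 astrocyte markers, with Gfap at 9945 against 58004 to 174853, and the part of this in its mt-Co1 share was not tested.

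**Figure D4:**
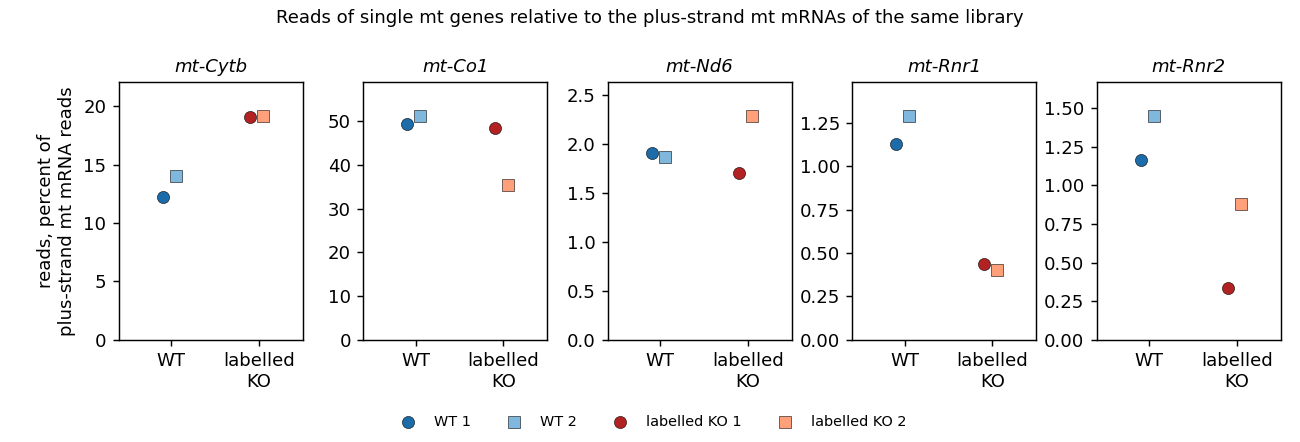
Reads of mt-Cytb, mt-Co1, mt-Nd6, mt-Rnr1 and mt-Rnr2 as a percentage of the plus-strand mitochondrial mRNA reads of the same library, with each axis starting at 0. The groups are apart for mt-Cytb (12.2% and 14.0% against 19.1% and 19.2%), mt-Rnr1, mt-Rnr2 and mt-Co1 (49.3% and 51.2% against 48.3% and 35.4%, the last being labelled KO replicate 2), and overlap for mt-Nd6.

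The tRNAs were far less abundant in reads than the mRNAs, with sums of 1548 and 1654 normalized counts in WT, against 1442 and 1448 in labelled KO (log2 difference -0.15, pooled SD 0.05; exact permutation p = 0.33), a difference that was 0.03 with quantile normalization. Of the 19 listed, 16 passed the minimum mean, and mt-Tv, mt-Tk and mt-Tt had at most 2 reads in any library. A group of 5 genes held most of the reads, and their sequences are printed because they carry the tRNA results. The anticodon, which pairs with the codon, is in capitals. The genes are mt-Tp for proline (chrM:15356-15422, minus strand), mt-Tc for cysteine (chrM:5192-5257, minus), mt-Tn for asparagine (chrM:5089-5159, minus), mt-Tl2 for leucine (chrM:11671-11741, plus) and mt-Te for glutamate (chrM:14071-14139, minus).
mt-Tp: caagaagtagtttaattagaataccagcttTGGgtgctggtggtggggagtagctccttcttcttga
mt-Tc: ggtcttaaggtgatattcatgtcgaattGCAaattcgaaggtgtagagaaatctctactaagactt
mt-Tn: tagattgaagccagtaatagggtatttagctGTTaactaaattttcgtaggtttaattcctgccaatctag
mt-Tl2: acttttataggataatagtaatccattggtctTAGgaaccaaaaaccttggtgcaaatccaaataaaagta
mt-Te: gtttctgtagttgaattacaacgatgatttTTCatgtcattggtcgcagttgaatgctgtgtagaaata
Minus-strand tRNA genes gave 1380 ± 14.2 normalized counts in WT and 1104 ± 220 in labelled KO, and plus-strand ones 221 ± 89.3 and 340 ± 224 (SD, n = 2). So reads counted on tRNAs lay mostly in genes of the minus strand, which carries 1 of the 13 mRNA genes. The largest part of the minus-strand sums was mt-Tp, whose values are given below. Whether the counting used strand is not given, so reads of either strand may enter these sums.

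The highest tRNA, mt-Tp, had 830 and 756 in WT against 586 and 593 in labelled KO. The groups did not overlap, with a log2 fold change of -0.43 (SE 0.29; limma adjusted p = 0.564). At 394 to 619 FPKM over its 67 bases it was above mt-Co2 in each library. Reads of mt-Co2 can also match its nuclear copy. The part of this, and of the short length of mt-Tp, in that order was not tested. The neighbours mt-Tc and mt-Tn varied alike between libraries: mt-Tc had 217, 287, 271 and 84.7, and mt-Tn 252, 280, 264 and 81.1, in WT replicates 1 and 2 and labelled KO replicates 1 and 2. Both were low only in labelled KO replicate 2, and there were 0.860 to 1.04 reads of mt-Tc for each of mt-Tn. The mt-Te values were 51.2 and 29.4 in WT against 82.4 and 169 in labelled KO, without overlap. Its log2 fold change was 1.58 (SE 0.61; limma unadjusted p = 0.0460, adjusted p = 0.358). The mt-Tl2 values, 73.6 and 157 against 116 and 308, overlapped.

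Among the 16 tRNAs tested, 10 had a log2 fold change above 0 and 6 below (12 above with quantile normalization). In 6 both libraries labelled KO lay above both WT libraries and in 2 below, where 22.5% and 25.4% of all genes tested did so. Low counts limit most of these. Besides mt-Rnr1 and mt-Te, mt-Ta had an unadjusted p under 0.05. It had 0 and 0.920 in WT against 4.28 and 4.51 in labelled KO, and the worth of 3 reads, taken as the detection floor, is 2.70 to 3.21 normalized counts. The groups overlapped in 8 of the 16 tRNAs tested: mt-Tn, mt-Tc and mt-Tl2 above, and 5 genes of lower counts. Of these, mt-Tl1 had 12.8 and 3.68 in WT against 4.28 and 39.7, mt-Ts2 had 18.1 and 30.3 against 7.49 and 38.8, and mt-Th had 18.1 and 51.5 against 23.5 and 47.8. The other two were mt-Ty, with 40.5 and 16.6 against 49.2 and 15.3, and mt-Tr, with 7.47 and 6.44 against 4.28 and 8.11. In all 5 the sign of the log2 fold change turned when a library was left out.

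Nuclear genes that make, read and use the mitochondrial genome were described with the members, from 10 lists that hold 235 different genes. Of these, 179 had a log2 fold change above 0 and 56 below, with a median of 0.29 beside -0.07 for all genes tested. The median was 0.18 without WT replicate 1. None passed an adjusted p under 0.05 in limma. At an unadjusted p under 0.05, 9 were higher and 1 lower, beside 4.54% and 9.18% of all genes tested. DESeq2 called 2 of the 235, both higher, where 1.69% of the genes it tested were called in that direction.

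On the transcription list 3 of 10 genes were above 0, with a median of -0.09. With quantile normalization these were 6 of 10 and 0.10, so the list had no direction that held under both scalings. The polymerase gene Polrmt had 513 and 573 in WT against 627 and 749 in labelled KO (log2 fold change 0.34, SE 0.30). Its partner Tfam, which also packages the DNA, was nearly level at 703 and 714, and 715 and 648 (-0.06, SE 0.29). Mterf1a, one of the mouse genes for the termination factor that binds downstream of the rRNA genes, had 143 and 119 in WT against 42.8 and 68.5 in labelled KO. Those groups were apart (log2 fold change -1.25, SE 0.50; limma unadjusted p = 0.0496, adjusted p = 0.364). Its near-identical paralog Mterf1b (69.4 and 44.1, 23.5 and 39.7) may share reads with it. In the replication list, 8 of 16 were above 0 with a median of -0.03. Polg, the polymerase that copies the DNA, had 908 and 1023 against 1166 and 1325, and Twnk, the helicase, 353 and 549 against 421 and 392.

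Genes of RNA processing and stability had a median of 0.25, with 16 of 22 above 0 (19 with quantile normalization); the median ran from 0.12 without labelled KO replicate 2 to 0.42 without labelled KO replicate 1. Lrpprc, which keeps mitochondrial mRNAs stable, had 881 and 748 in WT against 914 and 1293 in labelled KO (0.42, SE 0.32). Its partner Slirp had 50.1 and 104 against 108 and 108 (0.58, SE 0.54), with only WT replicate 1 standing apart. The poly(A) polymerase Mtpap had 359 and 290 against 377 and 436 (0.33, SE 0.34). The exonuclease Rexo2, which degrades short RNAs in mitochondria, had 1923 and 2226 against 3082 and 4458, without overlap (0.84, SE 0.32; limma unadjusted p = 0.0426, adjusted p = 0.355). In the list of rRNA and tRNA modification 9 of 18 were above 0, and 14 with quantile normalization. Among the aminoacyl-tRNA synthetases there were 8 of 20, and 14 with quantile normalization. Among the translation factors there were 10 of 15, and 13 with quantile normalization, with C1qbp, a mitochondrial matrix protein, at 1063 and 1052 against 1629 and 2352 (0.89, SE 0.31; limma adjusted p = 0.335).

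The 2 rRNAs of the mitochondrial ribosome were on average lower, but only mt-Rnr1 had groups apart. For mt-Rnr2 the log2 fold change was -0.10 without labelled KO replicate 1. The nuclear genes for proteins of this ribosome were on average higher. Of 77, 76 had a log2 fold change above 0, with a median of 0.34, and in 49 both libraries labelled KO lay above both WT libraries, which held for 22.5% of all genes tested. Leaving out each library in turn gave 64 to 75 of 77 above 0 and medians from 0.21 without WT replicate 1 to 0.49 without WT replicate 2. The small-subunit genes led: Mrps6 had 865 and 981 in WT against 3351 and 2734 in labelled KO (log2 fold change 1.71, SE 0.29). Mrps12 had 229 and 310 against 737 and 739. Both were called by DESeq2 (adjusted p = 0.00258 and 0.0314) and not by limma (adjusted p = 0.147 and 0.206). Mrps28 had 233 and 250 against 496 and 574, without a call by either tool.

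Nuclear partners of the respiratory chain had a median of 0.39, with 28 of 30 above 0. In 13 both libraries labelled KO lay above WT, beside 22.5% of all genes tested. The median was 0.14, with 21 of 30 above 0, without labelled KO replicate 1, and 0.18 without WT replicate 1, 0.61 without WT replicate 2 and 0.57 without labelled KO replicate 2. Cycs, the somatic cytochrome c that carries electrons from complex III to complex IV, had 606 and 974 in WT against 1491 and 2800 in labelled KO (log2 fold change 1.41, SE 0.44; limma unadjusted p = 0.0213, adjusted p = 0.292). Atp5b, a catalytic subunit of complex V, had 12616 and 18172 against 29708 and 22986, and Ndufb8 of complex I had 847 and 1192 against 1606 and 1414. For mitochondrial mass and import, 14 of 15 were above 0 with a median of 0.43. The chaperonin Hspd1 had 3316 and 3383 against 4325 and 9357, so that labelled KO replicate 2 was high. The outer membrane channel Vdac2 had 2154 and 2575 against 3910 and 3857 (0.72, SE 0.28; limma unadjusted p = 0.0453, adjusted p = 0.358). The biogenesis regulators had a median of 0.12, with 8 of 13 above 0 (10 with quantile normalization; medians of 0.00 to 0.25 with libraries left out), and the coactivator Ppargc1a stood at 799 and 648 against 480 and 628 (-0.39, SE 0.33).

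**Figure D5:**
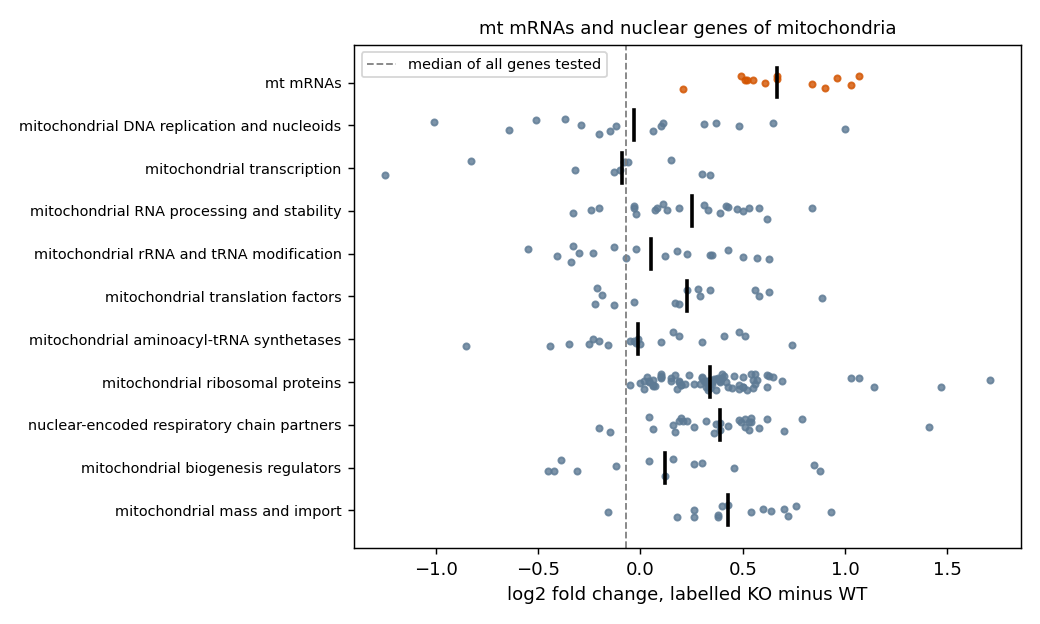
Log2 fold change (labelled KO minus WT) of the mitochondrial mRNAs and of nuclear genes in 10 lists; each point is a gene, black bars are list medians and the dashed line is the median of all genes tested (-0.07). Medians run from -0.09 for mitochondrial transcription to 0.43 for mass and import, and 0.67 for the mitochondrial mRNAs.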

How the data were processed

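RNA from cultured astrocytes was fragmented as mRNA and sequenced in read pairs by the authors, who aligned the filtered reads to mm10; aligner name, counter, strand setting and handling of multi-mapping reads are not given in the sources used here. The deposited table holds a normalized signal per gene and library. Every value was a whole multiple of a library constant (100% within 0.02), so it is a read count divided by a size factor of 0.934 to 1.11, and is not length corrected; read counts and FPKM were recovered from it and from the gene length column of the same file. Columns with the authors' group means, fold changes and p-values were not used.

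Members, though defined by symbol alone, and gene lists were chosen with earlier results of these data known. The main test was the moderated linear model of limma 3.58.1 in R 4.3.3, its prior variance following a trend, on log2(value + 1). It ran over the 22094 genes whose mean reached 1, and p-values were adjusted by Benjamini-Hochberg, with a threshold of 0.05. Sums and ratios were compared on the log2 scale by exact two-sided permutation. edgeR 4.0.16 (quasi-likelihood) and DESeq2 1.42.0 on recovered reads were alternatives. The fits were tested on simulated data. The study calls its replicates biological repeats and describes more of them than the 2 per genotype analysed here, but the labels do not tie libraries to separate cultures, so p-values measure only the spread between these libraries; replicates differed beyond counting noise (median chi-square per gene 8.04 in WT and 27.1 in labelled KO), and floors of 3 reads cover counting error only. The named genes were all members, Tet1, 8 fixed nuclear genes and up to 3 per list with the lowest p. Identifiers and coordinates of all 34 members matched GENCODE M21 (GRCm38), from whose transcripts the sequences were taken. Copies were searched with BLAST 2.17.0 among its annotated transcripts, counting matches of at least 200 bases and 95% identity; Gm11410 was below this and was chosen after its values were seen. Alternatives changed the pseudocount, filter, scaling, variance trend, replicate block, tool and libraries.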

Additional observations from a re-analysis of the deposited data

How the results depend on the processing

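No setting of limma or edgeR called a mitochondrial gene at an adjusted p under 0.05, and DESeq2 called none either, although it called 1106 genes in all and 2 on the nuclear lists. At an unadjusted p under 0.05, the 2 mRNAs became 1 with a mean minimum of 5, with edgeR and with DESeq2, 0 without the variance trend, and 0 to 1 when each library was left out. The 3 rRNAs and tRNAs became 1 with a mean minimum of 5 and with equal sums, with or without mitochondrial genes, and 1 to 4 with libraries left out. The 10 nuclear genes became 4 without the variance trend and 2 to 18 with libraries left out, 18 being without KO replicate 1 and 2 without WT replicate 1. Over all genes, 3032 became 1135 without WT replicate 1, 1380 without WT replicate 2 and 4846 without KO replicate 1. With the replicate number as a block these counts were 0 mRNAs, 1 rRNA or tRNA, 5 nuclear genes and 2583 in all. The block changed no adjusted call. Deviations of same-numbered libraries correlated at -0.084. This single value cannot tell whether same-numbered libraries shared a preparation, and the labels give only the number.

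The summed tRNA difference was 0.03 with quantile normalization, which moved the median of all genes from -0.07 to 0.06, and the difference of the mt-Nd6 ratio was -0.15 without mt-Co1 in the plus-strand sum and -0.15 (without KO replicate 2) to 0.28 with libraries left out. Of 523 alternative values for 31 genes, 12 in 7 genes turned direction. With libraries left out, log2 fold changes ran from -0.11 (without WT replicate 2; -0.05 without KO replicate 1) to 0.52 for mt-Co1, -0.73 (without KO replicate 1; -0.54 without WT replicate 2) to 0.90 for mt-Ty, -0.61 (without KO replicate 2) to 2.34 for mt-Tl1, -1.55 to 0.12 (without KO replicate 2) for mt-Tc, -0.60 (without WT replicate 1; -0.37 without KO replicate 2) to 0.85 for mt-Th, -0.59 to 0.20 (without KO replicate 1) for mt-Tr and -1.53 to 0.70 (without KO replicate 1) for mt-Ts2. Quantile normalization gave 0.28 for mt-Tr and 0.18 for mt-Ts2. The cause was not tested. With a library left out, the lone library of its group is assumed to vary like the other group.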
